A study of Mus musculus with 96 samples.

Results

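Hepatocyte RNA from mice labelled RevDKO was compared with that of Control mice at a single time of day, ZT10, that is 10 h after lights on. The comparison rests on 6 libraries of the 96 in the series, 3 labelled Control and 3 labelled RevDKO, chosen by their titles. All mice were C57BL/6J males with floxed Rev-erbα and Rev-erbβ alleles. They were injected into a vein at 8 weeks of age with an adeno-associated virus in which the hepatocyte promoter TBG drove GFP (Control) or the recombinase CRE (RevDKO). All then ate a high-fat, high-sucrose diet (D12492) for 4 weeks under 12 h of light and 12 h of darkness, with lights off at ZT12. The 6 libraries sit in a table of 36 hepatocyte libraries of 3 genotypes, 4 times (ZT4, ZT10, ZT16 and ZT22) and 3 libraries a group. The third genotype, RevScapTKO, lacked Scap in addition. Levels are given as RPKTM, reads per kilobase of transcript per 10000000 reads, after quantile normalization, and every log2 difference is of log2(RPKTM + 1) as RevDKO minus Control. Sequencing depth is unknown, so precision rests on the spread between libraries. The study's methods call the samples biological replicates. They and the labels do not name separate animals, so that p-values measure the spread between these libraries.

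REV-ERBα and REV-ERBβ, encoded by Nr1d1 and Nr1d2, are nuclear receptors that act as repressors of the circadian clock. They bind a DNA element shared with the activating ROR receptors and recruit the corepressor NCoR with the histone deacetylase HDAC3. In liver their classic target is Arntl, which encodes BMAL1, the partner of CLOCK in the activating arm of the clock, and they are also known for restraining genes of lipid metabolism. REV-ERB protein in mouse liver is abundant late in the light phase, which is when these cells were taken.

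The targeted genes were examined first, and neither was lower at ZT10 in the libraries labelled RevDKO. Nr1d1 stood at 102, 81.0 and 75.7 RPKTM in the Control libraries and at 326, 131 and 106 in the RevDKO libraries, all above the Control ones (log2 difference 0.95, SE 0.50, limma adjusted p = 0.68). Nr1d2 read 405, 422 and 348 RPKTM in Control and 404, 379 and 397 in RevDKO, with overlapping groups (log2 difference 0.01, SE 0.39). Thra, the thyroid hormone receptor gene whose transcript runs into Nr1d1 from the opposite strand, read 32.7, 23.5 and 29.6 RPKTM in Control and 116, 49.9 and 47.4 in RevDKO (log2 difference 1.17, SE 0.36, limma adjusted p = 0.15). The spans of Nr1d1 (mm9, chr11:98629246-98636691, minus strand) and Thra (chr11:98603099-98630320, plus strand) overlap, and whether counting used the strand is not given in the sources used here. Replicate 1 of RevDKO was the highest library for Nr1d1 and for Thra. At other times Nr1d1 was called higher in RevDKO, at ZT16 with 11.4 ± 4.97 against 66.1 ± 4.02 RPKTM (SD, n = 3, log2 2.52, limma adjusted p = 0.011) and at ZT22 with 8.28 ± 6.89 against 53.2 ± 20.1 (log2 2.73, adjusted p = 0.0045). A value for a whole transcript does not show whether single floxed exons were removed, so these levels do not check the deletion. The study itself reports strongly reduced expression of both targeted genes in hepatocytes, as relative mRNA. Control and RevDKO stand below for the labels of the libraries.

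Of the 10 hepatocyte markers none passed the test, with a median log2 difference of 0.00 and single differences from -1.77 to 0.48. Their summed level spanned 615173 to 771355 RPKTM in Control and 617852 to 635894 in RevDKO. Quantile normalization gives every library one set of values, so that a sum of such highly expressed genes is constrained and does not measure hepatocyte content. The 14 liver macrophage markers summed to between 569 and 880 RPKTM in Control and between 457 and 1126 in RevDKO, and none of the 14 passed (median log2 difference 0.38). The 7 endothelial markers (869 to 1263 against 947 to 1558 RPKTM) and the 8 stellate cell markers (821 to 1005 against 836 to 1382) also had no call. The 5 cholangiocyte markers summed to 33.6 to 34.4 RPKTM in Control and 42.6 to 75.7 in RevDKO. Among them Krt7 was listed at 0 in all 6 libraries, and Krt19 in all RevDKO libraries but not in all Control libraries. Sox9, described below, was called higher. The 9 lymphocyte and neutrophil markers summed to 5.7 to 13.6 RPKTM in Control and 6.1 to 7.5 in RevDKO, with Ly6g at 0 in all 6 libraries. In these bulk samples, fewer cells of a type and less RNA per cell cannot be told apart. With the macrophage score of each library as a covariate 188 genes were called, against 158 without it, of which 155 were shared.

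At ZT10 the expression of 158 of 13326 genes differed between RevDKO and Control (limma, Benjamini-Hochberg adjusted p under 0.05), which is 1.19% of the genes tested. Of these, 92 were higher (0.69%) and 66 were lower (0.495%) in RevDKO. Unadjusted p fell under 0.05 for 1090 genes, and the median difference of all genes was -0.004 on the log2 scale. In all 158 called genes the 3 RevDKO libraries lay on one side of the 3 Control libraries. Over all genes they lay above in 7.97% and below in 9.09%. The genes were called on these same libraries, so that this separation describes the calls and is no further evidence. The changes were often large, with 84 rises and 54 falls of more than 1 on the log2 scale, and 39 and 23 of more than 2. An exact permutation test of a single gene with 3 against 3 libraries cannot go below p = 0.1, so the calls rest on a spread shared over the 36 libraries. Fitting only the Control and RevDKO libraries gave 242 calls, and leaving out Control replicate 3, Control replicate 2 or RevDKO replicate 2 gave 81, 94 or 103.

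**Figure D1:**
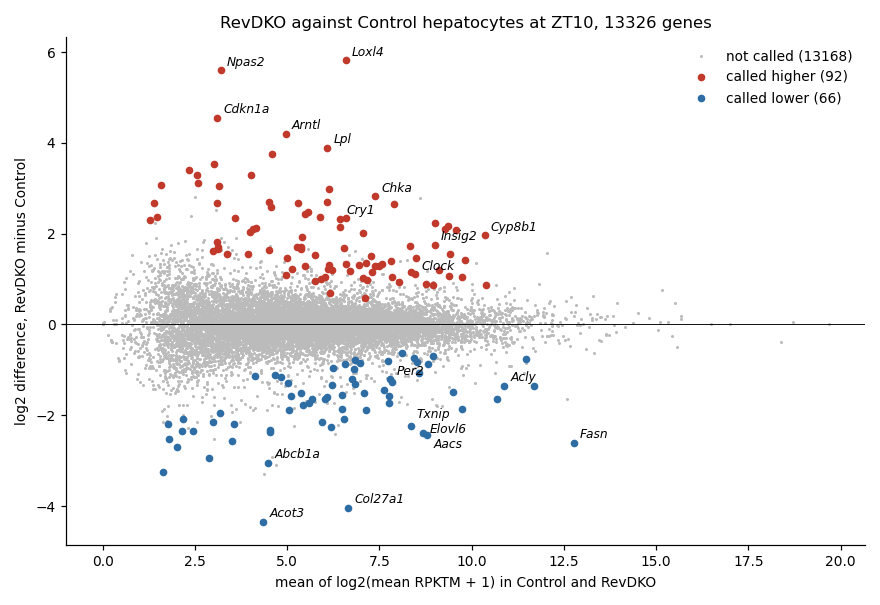
Difference between RevDKO and Control at ZT10 for each of 13326 genes (vertical axis, log2 of RPKTM + 1) against its mean level in both genotypes (horizontal axis, log2 of mean RPKTM + 1), with the 92 genes called higher in red, the 66 called lower in blue and the rest in grey. Loxl4, Npas2, Cdkn1a, Arntl and Lpl lead the rises.

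All 3 members of the activating arm of the clock were higher in RevDKO, with a median log2 difference of 4.20. Arntl (NM_001368412, mm9, chr7:120351025-120457640) stood at 4.62, 4.21 and 10.6 RPKTM in the Control libraries and at 145, 117 and 122 in the RevDKO libraries. The means were 6.49 ± 3.60 and 128 ± 15.1 RPKTM (SD, n = 3), a 19.7-fold rise with a gap of more than 100 RPKTM between the groups (log2 difference 4.20, SE 0.26, limma adjusted p = 7.6e-13). Npas2, whose protein can take the place of CLOCK beside BMAL1, was listed at 0 in 2 Control libraries and read 1.06 RPKTM in the other. In RevDKO it read 76.2, 53.6 and 54.3 RPKTM (log2 difference 5.60, SE 0.59, limma adjusted p = 2.1e-07). Clock itself was well expressed in both groups, with 254, 227 and 244 RPKTM in Control and 501, 584 and 476 in RevDKO, a 2.15-fold rise without overlap (log2 difference 1.10, SE 0.27, limma adjusted p = 0.032). The call of Clock was lost whichever of the 6 libraries was left out (adjusted p between 0.073 and 0.17), while those of Arntl and Npas2 were kept in all 6 such fits.

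Among the 6 period and cryptochrome repressors, which inhibit CLOCK and BMAL1, 1 rose and 1 fell. Cry1 read 28.1, 34.7 and 51.3 RPKTM in Control and 141, 233 and 206 in RevDKO, a 5.07-fold rise (log2 difference 2.33, SE 0.29, limma adjusted p = 3.9e-06). Per2 moved the other way, from 277, 329 and 382 RPKTM to 136, 111 and 184 (log2 difference -1.21, SE 0.29, limma adjusted p = 0.023). Per2 lost its call without Control replicate 2 or 3 or RevDKO replicate 1 or 2 (adjusted p up to 0.19), although its groups did not overlap. Per1, Per3, Cry2 and Ciart overlapped between genotypes, with log2 differences between -0.58 and 0.14. The median of the 6 genes was -0.27.

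Of the 6 output factors that carry the clock to other genes, Nfil3, a repressor also called E4BP4, was the only one called. It read 53.8, 30.6 and 42.8 RPKTM in Control and 248, 180 and 215 in RevDKO, so that the lowest RevDKO library was over 100 RPKTM above the highest Control one (log2 difference 2.33, SE 0.25, limma adjusted p = 3.1e-07). Bhlhe40, which encodes the repressor DEC1, read 551, 875 and 788 RPKTM in Control and 253, 392.4 and 435 in RevDKO (log2 difference -1.04, SE 0.29, limma adjusted p = 0.076). It passed when only Control and RevDKO libraries were fitted (adjusted p = 0.026). Tef had a log2 difference of -0.41, Dbp -0.23, Hlf 0.00 and Bhlhe41 0.67, none of them called, and the median of the 6 was -0.12.

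REV-ERB represses through corepressor proteins and shares DNA elements with the activating ROR receptors. Of these genes, the receptor gene Rora and the corepressor genes Ncor1, Hdac3, Tbl1x, Tbl1xr1 and Gps2 had log2 differences between -0.21 and 0.12, and none of these 6 was called. Rorb was listed at 0 in all 6 libraries and was not tested. The median of the 8 tested genes of the list was -0.11.

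**Figure D2:**
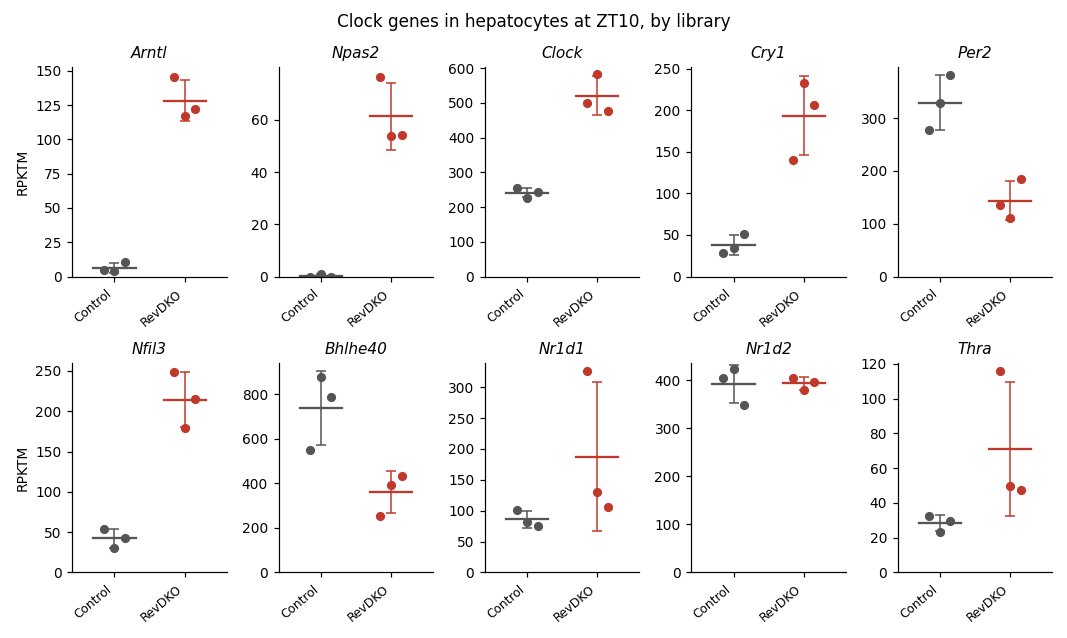
RPKTM of 10 clock genes at ZT10, one point for each of the 3 Control (grey) and 3 RevDKO (red) libraries, with the mean as a bar and the SD as whiskers. Arntl, Npas2, Clock, Cry1 and Nfil3 are higher in every RevDKO library and Per2 lower, while Nr1d2 overlaps between the groups.

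The promoters of the called genes were searched for the motifs TAGGTCA and TGGGTCA, the core of the element bound by REV-ERB and ROR, on both strands. The promoters span 250 bases before to 50 bases after each start of transcription (300 bases, RefSeq, build GRCm38.p6), and a gene counted where any of its promoters held a match. Either motif was present in 11 of the 70 higher genes with a promoter (15.7%) and in 1 of the 53 lower genes (1.89%), Osbpl5, beside 668 of the 10422 tested genes (6.41%) and 6.45% of all promoters. The 11 genes were Arntl, Nfil3, Dpp9 and Slc45a3 with TAGGTCA, and Ddc, Insig2, Slc13a2, Arsg, B3gat3, Nlrp12 and C230037L18Rik with TGGGTCA. Stretches of 30 bases around the motif (in capitals, as read along the gene's own strand) are given for the clock genes Arntl and Nfil3 and for Insig2 and Ddc, which are described below.
Arntl: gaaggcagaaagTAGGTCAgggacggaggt
Nfil3: ggcgctcggaacTGACCTActaacacacat
Insig2: ttgcttggtcttTGACCCAagtctctcgag
Ddc: aggacaaagaaaTGGGTCAgttcaaagcat
These lie at chr7:113207529-113207558 (plus strand), chr13:52981034-52981063 (minus), chr1:121328206-121328235 (minus) and chr11:11898133-11898162 (minus) of GRCm38.p6, in this order. The motif of Arntl and that of Ddc run with the gene, and those of Nfil3 and Insig2 run against it. Measured to the first base, they begin at position 31 after the start for Arntl and at -12, -199 and -6 for Nfil3, Insig2 and Ddc. A direct repeat of AGGTCA with 2 bases between was found in none of the 70 and 53 genes. The letters CACGTG, to which CLOCK and BMAL1 can bind, were present in 7 of the 70 higher genes (10%), Cry1 among them, and in 12 of the 53 lower genes (22.6%), beside 11.6% of the tested genes. Matches and missing matches are descriptions of these windows only.

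Of the 7 genes of the machinery that activates SREBP, the transcription factors of lipid synthesis, only Insig2 was called. Insig2 (mm9, chr1:123200930-123224601), which encodes a protein that retains the SCAP and SREBP complex in the endoplasmic reticulum, stood at 261, 314 and 259 RPKTM in Control and at 821, 1100 and 911 in RevDKO. That is a 3.39-fold rise with no overlap (log2 difference 1.75, SE 0.26, limma adjusted p = 7.0e-05), and the 3 RevScapTKO libraries at ZT10 read 846, 698 and 944 RPKTM. Srebf1, the gene of SREBP1, read 3076, 4059 and 4734 RPKTM in Control and 1978, 1532 and 2117 in RevDKO. Its groups did not overlap, but its difference missed the threshold (log2 -1.07, SE 0.38, limma adjusted p = 0.26) and passed it when only Control and RevDKO libraries, or only the 6 libraries, were fitted (adjusted p = 0.013 and 0.032). Srebf2, Scap, Insig1 and the proteases Mbtps1 and Mbtps2 had log2 differences between -0.30 and 0.30 and no call. Scap read 501, 475 and 424 RPKTM in Control and 638, 321 and 483 in RevDKO. The median of the 7 was 0.03.

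Of 12 fatty acid synthesis genes 3 were called lower in RevDKO, beside 0.495% of all genes tested, and none was called higher. All 12 had a negative difference, and the median was -1.17 on the log2 scale. In 9 of them every RevDKO library was below every Control library, beside 9.09% of all genes. The called genes were Fasn, Acly and Elovl6. Fasn (mm9, chr11:120667272-120685861), the fatty acid synthase, fell from 11909, 21193 and 19004 RPKTM in Control to 2838, 2274 and 3247 in RevDKO. Its lowest Control library was more than 3 times its highest RevDKO library, and the means differed 6.23-fold (log2 difference -2.61, SE 0.50, limma adjusted p = 0.0025). The RevScapTKO libraries read 117, 172 and 253 RPKTM for Fasn. Acly, which supplies cytosolic acetyl-CoA, read 2557, 3493 and 3076 RPKTM in Control and 1181, 1166 and 1193 in RevDKO (log2 difference -1.35, SE 0.33, limma adjusted p = 0.023). Elovl6, which elongates C16 fatty acids, read 641, 1050 and 1154 RPKTM against 129, 161 and 249 (log2 difference -2.40, SE 0.62, limma adjusted p = 0.045).

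The call of Fasn was kept whichever library was left out. Acly kept it only without Control replicate 1, with an adjusted p of up to 0.16 in the other fits, and Elovl6 in none of the 6 fits (0.063 to 0.23). Scd1, the stearoyl-CoA desaturase, read 6608, 15272 and 11553 RPKTM in Control and 2722, 4140 and 3334 in RevDKO without passing (log2 -1.65, SE 0.52, limma adjusted p = 0.17). Acaca, Acacb, Me1 and Pklr likewise had log2 differences between -1.39 and -0.92 without overlap and without a call. Thrsp, Acss2 and Mlxipl overlapped between the groups.

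**Figure D3:**
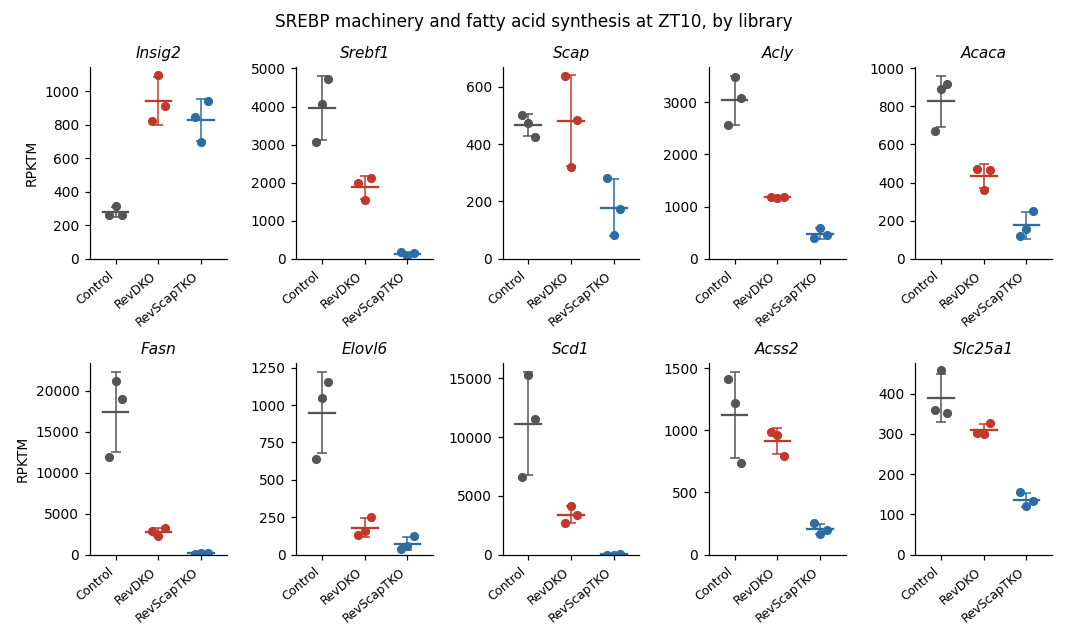
RPKTM at ZT10 of 10 genes of SREBP activation and fatty acid synthesis, one point per library for Control (grey), RevDKO (red) and RevScapTKO (blue), with mean and SD for 3 libraries a group. Insig2 is higher and Fasn, Acly and Elovl6 lower in RevDKO than in Control, whereas Scap and Acss2 overlap between these groups.

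Other lipid lists had few calls, beside 1.19% of all genes, a share at which lists of this size would hold few or none. None of the 20 cholesterol synthesis enzymes passed (median -0.10), nor did any of the 13 genes of cholesterol uptake and efflux (-0.32), 10 other desaturases and elongases (-0.42), 11 triglyceride synthesis enzymes (-0.27), 12 lipid droplet proteins (-0.15) or 12 genes of apolipoproteins and VLDL assembly (0.10). Agpat1, which is outside the triglyceride synthesis list, was called lower. It kept the call in 2 of the 6 fits that left out a library (log2 -1.405 to -1.017 in these fits). In the list of 19 lipases and uptake genes (median 0.10) Lpl was called. Lpl, the lipase that releases fatty acids from circulating triglyceride, stood at 24.1, 9.28 and 17.1 RPKTM in Control and at 352, 168 and 254 in RevDKO, a 15.3-fold rise (log2 difference 3.89, SE 0.35, limma adjusted p = 8.1e-09). In RevScapTKO it read 75.9, 163 and 112 RPKTM.

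Among 24 genes of fatty acid oxidation and ketogenesis only Acaa1b, a peroxisomal thiolase, was called. It fell from 1436, 1602 and 1787 RPKTM to 541, 301 and 530 (log2 difference -1.86, SE 0.44, limma adjusted p = 0.022, lost without any of the 3 Control libraries or RevDKO replicate 2, at up to 0.19). In 12 of the 24 every RevDKO library was below every Control library, beside 9.09% of all genes, and the median was -0.25. Of 8 acyl-CoA thioesterases, which release free fatty acids from CoA, Acot3 and Acot4 were lower (median of the list -0.95). Acot3 had the largest fall among the named genes, from 65.1, 86.2 and 99.2 RPKTM to 0.84, 3.35 and 7.60 (log2 difference -4.34, SE 0.74, limma adjusted p = 0.0007), and its call was lost with a pseudocount of 0.1 (adjusted p = 0.083). Acot4 read 107, 116 and 159 RPKTM against 17.9, 32.4 and 35.7 (log2 -2.15, limma adjusted p = 0.0044, and 0.054 without RevDKO replicate 1). These paralogs lie close in sequence, and reads could be split between them. Cyp4a12a was the called gene among 6 Cyp4a omega-hydroxylases (median -0.59), at 490, 305 and 378 RPKTM against 148, 113 and 89.5 (log2 -1.74, limma adjusted p = 0.016), with up to 0.12 when Control replicate 1 or 3 or RevDKO replicate 2 or 3 was left out.

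In bile acid synthesis and transport (19 genes, median 0.09) Cyp8b1, the sterol 12α-hydroxylase that sets the share of cholic acid, was higher. It read 1281, 399 and 450 RPKTM in Control and 2587, 2193 and 2397 in RevDKO (log2 difference 1.96, SE 0.32, limma adjusted p = 0.000315), and the highest Control library was below the lowest RevDKO library. Chka, the choline kinase that starts phosphatidylcholine synthesis, stood at 69.0, 35.3 and 85.3 RPKTM in Control and at 480, 361 and 449 in RevDKO (log2 2.83, SE 0.32, limma adjusted p = 9.1e-07). Cbs, which commits homocysteine to cysteine, rose less, from 1053, 1072 and 838 RPKTM to 1714, 1870 and 1822 (log2 0.87, SE 0.15, limma adjusted p = 0.001). The 17 genes of this methionine and phosphatidylcholine list had a median of 0.05.

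Both called genes of the 22 in amino acid catabolism rose (median 0.19). Ddc, the aromatic amino acid decarboxylase, read 65.7, 59.3 and 72.3 RPKTM in Control and 271, 274 and 256 in RevDKO, with narrow groups far apart (log2 2.01, SE 0.20, limma adjusted p = 8.1e-08). Kynu, the kynureninase of tryptophan breakdown, read 660, 552 and 557 RPKTM against 1170, 1283 and 1178 (log2 1.04, SE 0.21, limma adjusted p = 0.0052). Ppp1r3c, which targets protein phosphatase 1 to glycogen, was the called gene of 25 in glucose, glycogen and fructose metabolism, at 175, 192 and 293 RPKTM against 657, 635 and 498 (log2 1.46, limma adjusted p = 0.0047, list median -0.15). Txnip, an inhibitor of glucose uptake, was the called one of 14 insulin and feeding response genes, falling from 725, 633 and 726 RPKTM to 169, 104 and 182 (log2 -2.23, SE 0.47, limma adjusted p = 0.0082, list median -0.14). Txnip lost its call without Control replicate 3 or RevDKO replicate 2 (adjusted p up to 0.08). The gene lies within the span of Gm15441, described below, on the opposite strand.

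Glutathione S-transferases went both ways, with Gstm7 and Gstm2 higher and Gstt3 lower among 19 (median 0.27). Gstm7 read 65.8, 64.3 and 50.8 RPKTM against 128, 165 and 168, and Gstt3 119, 238 and 155 against 36.5, 37.1 and 65.6 (log2 1.33 and -1.85, limma adjusted p = 0.012 for each). Gstm2, at 14.7, 31.7 and 17.5 RPKTM against 68.7, 96.6 and 75.5, was just inside the threshold (log2 1.92, limma adjusted p = 0.049) and outside it without any 1 of the 6 libraries (0.051 to 0.25). Gstm7 was lost without Control replicate 3 or RevDKO replicate 2 or 3 (up to 0.10), and Gstt3 without Control replicate 2 or 3 or RevDKO replicate 1 or 2 (up to 0.14). The members of this family resemble each other, so that reads could be split between them.

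Of 21 nuclear receptors Ppard rose and Esr1 fell (median -0.14). Ppard, the gene of the fatty acid receptor PPARδ, read 10.5, 15.5 and 17.7 RPKTM in Control and 100, 84.6 and 107 in RevDKO (log2 2.68, SE 0.37, limma adjusted p = 2.2e-05). Its RevScapTKO libraries read 62.3, 13.7 and 30.7 RPKTM. Esr1, the estrogen receptor α gene, read 104, 86.9 and 142 RPKTM against 35.5, 18.7 and 65.4 (log2 -1.60, limma adjusted p = 0.019) and lost the call without Control replicate 1 or 3 or RevDKO replicate 1 or 2 (up to 0.28).

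Among 14 cell cycle and growth genes (median -0.14) Cdkn1a, which encodes the cyclin-dependent kinase inhibitor p21, rose and Wee1, a kinase that holds back mitosis, fell. Cdkn1a read 1.06, 0 and 1.17 RPKTM in Control and 23.6, 66.4 and 34.1 in RevDKO (log2 4.56, SE 0.57, limma adjusted p = 4.0e-06). Wee1 read 68.0, 82.9 and 80.1 RPKTM against 15.1, 23.2 and 29.1 (log2 -1.77, limma adjusted p = 0.0048, and 0.059 without RevDKO replicate 1). Sox9, a transcription factor in the cholangiocyte list, read 15.9, 11.5 and 8.81 RPKTM in Control and 45.9, 34.7 and 37.3 in RevDKO (log2 1.65, SE 0.25, limma adjusted p = 9.1e-05). Of the 5 genes in that list 2 were tested (median 0.74), and the one other than Sox9 had a log2 difference of -0.17 without a call. The list, Sox9 included, summed to 33.6 to 34.4 RPKTM in Control and 42.6 to 75.7 in RevDKO.

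Of all genes tested 1.19% were called, so that lists of these sizes would hold few calls or none. Of 43 lists 23 had no called member. Besides those above they were the 29 tested Cyp2 and Cyp3 drug-metabolizing enzymes (median 0.03), 17 major urinary proteins (0.02), 13 growth hormone signalling genes (0.10), 20 acute phase proteins (-0.24), 25 secreted hepatokines (0.05), 14 heat shock and cold-inducible genes (-0.14), 21 unfolded protein and stress response genes (0.07), 25 respiratory chain subunits (0.11), 2 lymphocyte and neutrophil markers (-0.26), 6 erythroid markers (-0.10), 9 periportal genes (0.17) and 9 pericentral genes (0.07). Cyp2d26, which is outside the list of Cyp2 and Cyp3 enzymes, was called lower. It kept the call in 1 of the 6 fits that left out a library (log2 -0.903 to -0.614 in these fits). The 7 endothelial markers had a median of 0.20 and the 8 stellate cell markers 0.27. The REV-ERB genes and Thra had 0.95. Among 16 genes that the study singled out, Arntl and Insig2 were called (median 0.00), and Jund, Eno1, Pdgfd, Pdgfrb, Bmp5, Bmpr1a, Inhba and Tnfsf12 had log2 differences between -1.15 and 0.49 without a call.

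**Figure D4:**
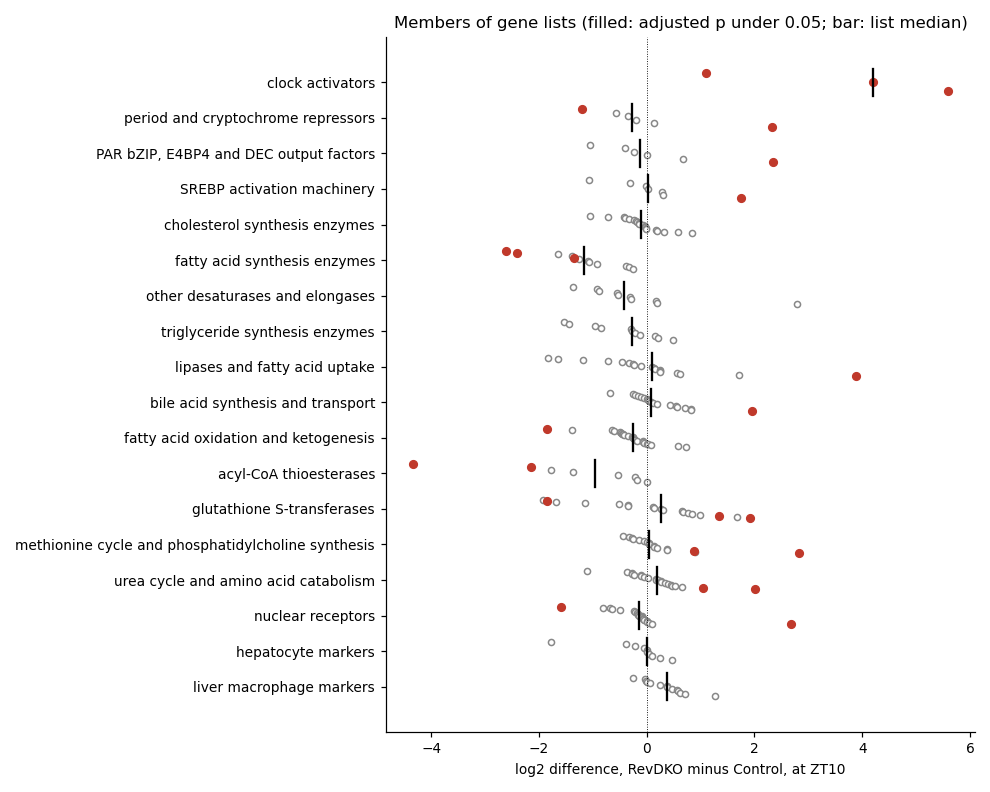
Log2 difference between RevDKO and Control at ZT10 (horizontal axis) for each tested member of 18 gene lists, with called genes as filled red points, the others as open points and the list median as a bar. The 3 clock activators lie at 1.10 or higher, and all 12 fatty acid synthesis genes lie below 0 with a median of -1.17.

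The largest rise of any named gene was that of Loxl4 (NM_053083, mm9, chr19:42666769-42687296), which encodes a lysyl oxidase-like enzyme of collagen cross-linking. It stood at 14.4, 10.1 and 11.1 RPKTM in Control, at 885, 617 and 676 in RevDKO and at 888, 830 and 753 in RevScapTKO. The RevDKO mean was 61.2 times the Control mean (log2 difference 5.82, SE 0.33, limma adjusted p = 1.3e-13). Slc13a2, a transporter of dicarboxylates such as succinate and citrate, read 5.54, 4.70 and 2.41 RPKTM against 63.2, 43.3 and 41.5 (log2 3.30, limma adjusted p = 0.011). The antisense gene Slc13a2os overlaps it on the opposite strand and read 3.48, 0.49 and 2.80 RPKTM against 28.0, 26.9 and 16.4 (log2 3.04, limma adjusted p = 0.022), so that reads of the pair cannot be told apart if strand was not used. Slc13a2 was lost without Control replicate 3 or RevDKO replicate 1 (up to 0.095), and Slc13a2os without Control replicate 2 or 3 or RevDKO replicate 1 or 2 (up to 0.22). The RIKEN genes B930025P03Rik (log2 3.76) and D630024D03Rik (3.54) were also among the 10 largest rises.

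Besides Acot3, Fasn and Elovl6, the 10 largest falls held 7 genes, of which Aacs also belongs to lipid synthesis. Col27a1, a fibrillar collagen gene, dropped from 393, 327 and 466 RPKTM to 36.9, 13.9 and 23.0 (log2 -4.04, SE 0.51, limma adjusted p = 4.0e-06). Abcb1a, the P-glycoprotein drug exporter, read 31.6, 62.7 and 84.9 RPKTM against 1.96, 6.51 and 13.2 (log2 -3.04, limma adjusted p = 0.0045), with up to 0.068 when Control replicate 3 or RevDKO replicate 1 was left out. Aacs, which activates acetoacetate for lipid synthesis, read 1001, 1069 and 1013 RPKTM against 228, 137 and 213, and 60.3, 34.7 and 66.5 in RevScapTKO (log2 of RevDKO minus Control -2.44, SE 0.43, limma adjusted p = 0.0011). Osbpl5, an oxysterol-binding protein homologue, read 18.4, 30.3 and 31.7 RPKTM against 4.12, 3.50 and 3.11 (log2 -2.57, limma adjusted p = 0.00013). Gm15441, a noncoding gene, read 150, 151 and 171 RPKTM against 37.3, 23.0 and 37.3 (log2 -2.27, limma adjusted p = 0.00083). Its span (mm9, chr3:96359691-96370724, minus strand) holds the whole of Txnip (chr3:96361880-96365780, plus strand), described above. Reads of Gm15441 and Txnip cannot be told apart if strand was not used, so that their falls may not be separate. Tnfrsf19 (log2 -2.37) and Nat8f5 (-2.32) were each called in 2 of the 6 fits that left out a library (limma adjusted p up to 0.27 and 0.12), kept without RevDKO replicate 1 or 3 for the first and without Control replicate 2 or RevDKO replicate 2 for the second.

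The same contrast at the other times used different libraries of the same table. It gave 78 called genes at ZT4 (0.585%), 40 at ZT16 (0.3%) and 65 at ZT22 (0.488%). Of the 158 genes called at ZT10, 45 were also called at ZT4 (28.5% of the ZT10 calls and 57.7% of the ZT4 calls), 26 at ZT16 (16.5% and 65%) and 21 at ZT22 (13.3% and 32.3%), with the same sign in 45, 26 and 20. The 92 higher genes had a median difference of 1.71 at ZT10, and of 0.91, 0.61 and 0.33 at ZT4, ZT16 and ZT22, with 87, 84 and 68 of them above 0. The 66 lower genes had medians of -1.63 at ZT10 and of -0.71, -0.55 and -0.32 at these times, with 60, 54 and 47 below 0. The value at ZT10 is that on which the genes were called and is therefore inflated beside the others. Called at all 4 times were 9 genes, namely Loxl4, Cyp17a1, Grk5, Hectd2, Hectd2os, Pyroxd2 and B930025P03Rik, which were higher, and Col27a1 and Aldh3a2, which were lower. At ZT10 the call was lost for Hectd2os without Control replicate 1 or RevDKO replicate 2 (limma adjusted p up to 0.063), and for Cyp17a1 without any 1 library but Control replicate 2 (up to 0.26).

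Whether a difference at ZT10 departed from the mean difference of the other 3 times was tested directly. It did so for 26 genes (0.195%; 572 at unadjusted p under 0.05), 17 upward and 9 downward, and all but Gpam were also called at ZT10. Without Control replicate 2 at ZT10 the count was 10, without Control replicate 3 at ZT10 16, without RevDKO replicate 1 or 2 at ZT10 16 or 15, and without replicate 1 of RevDKO at ZT16 or ZT22 17 or 16. Of the 10 genes with the smallest adjusted p, 9 kept the call in all 24 fits that left out a library, the exception being Rtn4rl1 (adjusted p = 0.092 without Control replicate 2 at ZT10).

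Arntl led these genes. Its Control level was 36.7 ± 19.7 RPKTM at ZT4, 6.49 ± 3.60 at ZT10, 83.9 ± 18.7 at ZT16 and 116 ± 3.52 at ZT22, whereas RevDKO stayed between 128 ± 15.1 and 151 ± 6.72 (SD, n = 3). Its difference was thus largest at ZT10 and small at ZT22 (log2 0.29, SE 0.26), and the departure was 3.16 on the log2 scale (SE 0.30, limma adjusted p = 1.3e-07). Ddc and Clpx, the ATPase of a mitochondrial protease, had the same course. Clpx read 237, 228 and 242 RPKTM in Control and 1035, 1307 and 1011 in RevDKO at ZT10, and 867 ± 34.0 against 861 ± 126 RPKTM at ZT22 (departure 1.75, SE 0.31, limma adjusted p = 0.0043). The departure was 1.63 for Ddc (adjusted p = 0.0005). Rtn4rl1, a Nogo receptor homologue, read 21.7, 15.043 and 30.1 RPKTM in Control and 72.9, 77.7 and 66.9 in RevDKO at ZT10 (log2 1.71, departure 1.53, adjusted p = 0.0049). Insig2, Cry1, Nfil3, Loxl4, Cdkn1a and Chka also departed upward at ZT10.

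Fasn and Acly of the 12 fatty acid synthesis genes, Gpam of the triglyceride synthesis list and Aacs were among the 9 genes that departed downward. Fasn fell at ZT10, but its log2 difference was 0.00 at ZT4, 0.87 at ZT16 and 1.29 at ZT22, and its departure was -3.33 (SE 0.57, limma adjusted p = 0.004). Control Fasn was highest at ZT10 (17369 ± 4853 RPKTM, SD, n = 3) and RevDKO Fasn at ZT22 (13366 ± 5114). Acly showed 0.59, 0.81 and 1.45 at ZT4, ZT16 and ZT22, where the value at ZT22 was itself called (limma adjusted p = 0.032), and a departure of -2.30 (adjusted p = 0.0023). Gpam, the mitochondrial enzyme that starts triglyceride synthesis, read 3227, 4509 and 3829 RPKTM in Control and 2282, 2064 and 2033 in RevDKO at ZT10 (log2 -0.85, adjusted p = 0.07). At ZT22 its mean was 1741 ± 502 against 4281 ± 735 RPKTM (log2 1.33, limma adjusted p = 0.0032), giving a departure of -1.55 (adjusted p = 0.004). Elovl6 had a departure of -3.13 that did not pass (adjusted p = 0.059). The whole list of 12 fatty acid synthesis genes had medians of 0.32, -1.17, 0.55 and 1.19 at ZT4, ZT10, ZT16 and ZT22, with 9, 0, 11 and 11 genes above 0. Crybg2 and Rwdd2a, both of low level, departed downward as well. Crybg2 read 27.3, 19.2 and 11.7 RPKTM against 1.40, 0.68 and 2.90 at ZT10, and 19.5, 19.0 and 14.4 in RevScapTKO. Rwdd2a read 26.9, 29.3 and 16.4 RPKTM against 3.77, 6.21 and 3.51, and its fall at ZT10 itself (limma adjusted p = 0.04) was lost whichever library was left out (0.069 to 0.21).

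**Figure D5:**
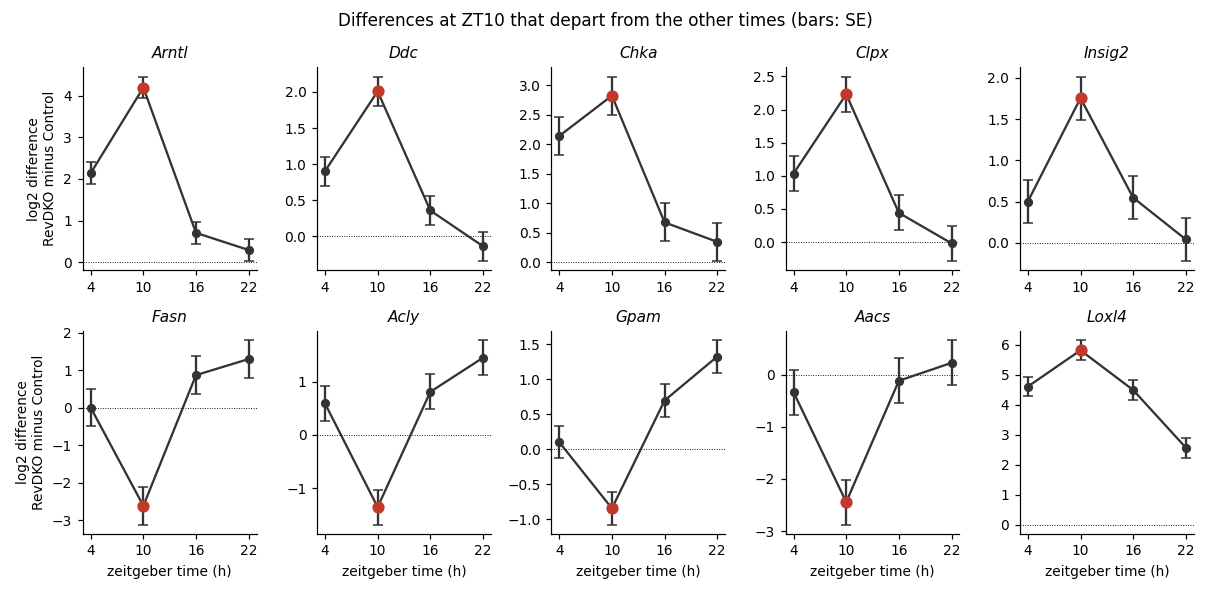
Log2 difference between RevDKO and Control (vertical axis, with SE from the fit) at the 4 zeitgeber times (horizontal axis, hours) for 10 genes whose difference at ZT10, in red, departed from the mean of the other times. Arntl, Ddc, Chka, Clpx, Insig2 and Loxl4 peak at ZT10, while Fasn, Acly, Gpam and Aacs reach their lowest value there.

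The Control level of the called genes was often at an extreme at ZT10. It was the lowest of the 4 time means for 72 of the 92 higher genes and the highest for 47 of the 66 lower genes, beside 2653 lowest and 3068 highest among all 13326 genes. In RevDKO, ZT10 was the lowest time for 16 of the 92 and the highest for 7 of the 66. These counts use the libraries on which the genes were called, so that they describe the calls and are no further evidence. The median range of the Control level over the day was 1.32 on the log2 scale for the higher genes and that of the RevDKO level 0.67. For the lower genes these ranges were 1.15 and 0.95, and for all genes 0.53 and 0.56.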

How the data were processed

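The authors removed ribosomal RNA, made stranded libraries from hepatocyte RNA and sequenced them. STAR and HOMER, with the genome build mm9, are named in the submitters' processing notes, and their versions are not given in the sources used here. The deposited unit is an RPKM scaled to 10000000 reads by the authors (RPKTM) over RefSeq transcripts and quantile normalized, so that all 36 columns hold one set of values and a global shift would be hidden. Such values keep no read counts, so that depth is unknown. The 3 tables of other cells and genotypes were not used.

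From 42322 transcripts of 25095 symbols, each gene was represented by its transcript of highest mean and kept where at least 3 of the 36 libraries exceeded 5 RPKTM, which left 13326 genes; the third highest value was 5.01 just inside and 5 just outside this limit. limma 3.58.1 in R 4.3.3 was fitted to log2(RPKTM + 1) with a mean-variance trend and 1 mean for each of the 12 groups, two-sided, with Benjamini-Hochberg adjustment over all genes and a threshold of 0.05. The pseudocount understates the change of low genes. On simulated data for RevDKO minus Control at ZT10 with 13326 genes, changes of 1 and 2 on the log2 scale were recovered in 40% and 96% of 100 genes each. The changed genes were drawn only from those of higher mean level, and the noise was normal. Recovery among genes of low level was not measured, so that these shares do not hold for all tested genes.

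Named genes were the 10 largest rises and falls among called genes whose groups did not overlap and whose higher mean was at least 20 RPKTM, all members of the clock and SREBP machinery lists, up to 4 called genes per direction in every other list, the 10 smallest adjusted p of the departure and the genes the study singled out. The members and lists were chosen with earlier results of these data known. Some genes that this rule names are not reported here. Promoter sequences are from RefSeq. Groups came from the labels, and replicates were compared as labelled. Alternatives were other pseudocounts, filters, sample sets, centring, the trend, a replicate block, a macrophage score as covariate, every transcript and leaving out each library.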

Additional observations from a re-analysis of the deposited data

Results flagged for a closer look

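For 26 genes the RevDKO minus Control difference at ZT10 differed from the mean difference at ZT4, ZT16 and ZT22 by a test of that departure itself (limma, adjusted p under 0.05). Those reported here, as log2 differences, were 3.16 for Arntl, 1.63 for Ddc, 1.75 for Clpx, 1.53 for Rtn4rl1, 1.93 for Loxl4, 3.27 for Cdkn1a, 1.77 for Chka, 1.37 for Nfil3, 1.54 for Cry1, 1.39 for Insig2, 0.95 for Gldc, 1.38 for Eps8l2, 1.45 for Gm31508, 2.25 for Ube2u, 2.08 for Cir1 and 3.80 for Slc35e4. Downward they were -3.33 for Fasn, -2.30 for Acly, -1.55 for Gpam, -2.37 for Aacs, -3.17 for Crybg2, -3.67 for Rwdd2a, -1.71 for Lrrc28, -1.43 for Ttc23 and -2.74 for Gm35986. In all 24 fits that left out a library the call was kept, among these, by Arntl, Ddc, Clpx, Fasn, Acly, Gpam, Crybg2 and Rwdd2a. The call rested most on single libraries for Gm35986 (kept in 5 of 24 fits), Cry1 (9), Insig2 (10) and Gldc (11). Slc35e4 was listed at 0 in all 3 Control libraries at ZT10.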

How the results depend on the processing

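The count of 158 genes at ZT10 was 242 when only Control and RevDKO libraries were fitted, of which 154 were shared, 231 with only the 6 libraries at ZT10, of which 129 were shared, and 146 to 188 under the other alternatives that kept all 6 libraries. Leaving out 1 of the 6 gave 81 to 116, each with 2 libraries remaining in that group, and 62 of the 158 kept the call in all 6 fits. Of the 81 and 103 calls without Control replicate 3 and RevDKO replicate 2, 70.4% and 68.9% were higher, against 58.2% of the 158. The departure from the other times was called for 17 genes without the mean-variance trend, for 21 to 37 under the others, and for 10 to 31 with 1 of 24 libraries left out. With only Control and RevDKO libraries the counts at ZT4, ZT16 and ZT22 were 129, 98 and 123 in place of 78, 40 and 65. With a replicate block the counts were 171 at ZT10 and 25 for the departure, and 93, 55 and 73 at ZT4, ZT16 and ZT22. Same-numbered Control and RevDKO libraries at ZT10 had correlations of their deviations of 0.16, 0.10 and 0.02, so that the numbers were not taken as pairs, and RevDKO replicate 3 correlated best with Control replicate 2 (0.04). Under the block Elovl6 lost its call at ZT10 (adjusted p = 0.052) and Gm35986 its departure (0.056). No named gene changed direction in a call under any alternative, with 2136 values on the same side of the threshold, 262 that lost a call and 5 that gained one. Without a filter, among others, Acaa1b, Acly, Clock, Elovl6, Esr1, Gstm2, Per2, Rwdd2a, Slc13a2os and Tnfrsf19 lost the call. That fit tested more genes and also estimated the mean-variance trend anew, and the part of each was not tested. The alternative without 3 libraries of high Alb was run with the 5 that exceeded 10% of their column, chosen after seeing the data, as were the fit without RevScapTKO at ZT10 and the alternatives at the other times.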

Other observations

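The following genes lie outside the lists and were chosen after their values were seen. Adh1, Aldh3a2, Ces1d and Nampt were lower in RevDKO at ZT10. Adh1, the main hepatic alcohol dehydrogenase, read 4827, 5566 and 5357 RPKTM in Control and 2106, 1763 and 2340 in RevDKO (log2 -1.35, limma adjusted p = 0.0017). Aldh3a2, the fatty aldehyde dehydrogenase, read 1231, 1251 and 1145 RPKTM against 469, 444 and 380 (log2 -1.49, adjusted p = 0.0025). Ces1d, a carboxylesterase with close paralogs, read 2801, 2607 and 3271 RPKTM against 1092, 642 and 1121 (log2 -1.64, adjusted p = 0.0062), and its call was lost without Control replicate 3 or RevDKO replicate 2 (up to 0.081). Nampt, the rate-limiting enzyme of NAD salvage, read 326, 319 and 433 RPKTM against 136, 149 and 155 (log2 -1.28, adjusted p = 0.0019).

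Other genes were higher. Gldc, a subunit of the glycine cleavage system, read 418, 380 and 401 RPKTM in Control and 1014, 1316 and 1205 in RevDKO (log2 1.55, limma adjusted p = 9.1e-07). Cyp17a1, a steroid hydroxylase and lyase, read 83.7, 183 and 38.7 RPKTM against 431, 643 and 550 (log2 2.65, adjusted p = 0.021) and was called at all 4 times. At ZT10 its call was kept only without Control replicate 2, with an adjusted p of up to 0.26 in the other fits that left out a library. Coq8a, needed for coenzyme Q synthesis, read 604, 542 and 497 RPKTM against 1760, 1346 and 1290, with 1075, 636 and 782 in RevScapTKO (log2 of RevDKO minus Control 1.41, adjusted p = 0.00094). Tcn2, a carrier of vitamin B12, read 336, 378 and 376 RPKTM in Control, 959, 801 and 761 in RevDKO and 341, 404 and 320 in RevScapTKO (log2 of RevDKO minus Control 1.20, adjusted p = 0.025), and its call was lost whichever library was left out (0.063 to 0.13).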
